A study of Mus musculus with 6 samples.

Results

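The genes described here encode the hyaluronan-based matrix of the brain and the proteins that bind it. They comprise 4 lecticans (Ncan, Bcan, Vcan and Acan), the link protein Hapln1, the tenascins Tnc and Tnr, the hyaluronan receptor Cd44 and 2 membrane proteoglycans, Ptprz1 and Cspg5. All 10 were measured, out of 22180 genes with at least 1 probe set that the platform annotation assigns to exactly 1 gene symbol. Where a gene had several probe sets, the brightest on average was taken; this applied only to Ncan, which had 2.

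The study examined what astrocytes contribute when myelin is repaired. Demyelinating lesions were made with the myelin-stripping lipid LPC in mouse brains at an age of 5 to 6 weeks. All mice, wild type and transgenic, then received CID after 48 hours and were sacrificed 7 days after the lesion. CID is the compound that sets off ablation in the transgenic mice, whose non-proliferative GFAP+ astrocytes can be removed selectively. Each lesion was macrodissected and its RNA measured on an Affymetrix array of its own, giving 3 wild type and 3 transgenic arrays. The sources used here do not give the promoter and construct of the transgene or the strain, and no group without a lesion or without CID was among the samples. Whether lesions of 1 group were taken from different mice is not stated, so every p-value below measures only the spread between these samples. Transgenic replicates 1 and 3 differed in sex from transgenic replicate 2 (below), so the transgenic lesions did not all come from 1 mouse.

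In the brain, lecticans carry chondroitin sulfate chains on a core protein whose one end holds hyaluronan and whose other end holds tenascin-R, so that the components form a network around cells. Link proteins lock the lectican to the hyaluronan chain, and around some neurons, above all parvalbumin interneurons, this network condenses into perineuronal nets. After injury chondroitin sulfate proteoglycans accumulate in and around lesions, where they are known to restrain the outgrowth of axons and of oligodendrocyte precursors. Astrocytes, precursors and neurons each make part of this matrix.

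Levels are log2 intensities and differences are transgenic minus wild type on that scale. Standard errors, 95% confidence intervals and p-values are those of limma fitted over all 41345 probe sets, with Benjamini-Hochberg adjustment over all of them. A probe set counted as called at an adjusted p under 0.05. Levels of different genes are not compared, because each probe set binds with its own strength.

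In the RefSeq annotation of assembly GRCm38.p6, each of the 4 lectican genes has a link protein gene as its direct protein-coding neighbour. Vcan lies beside Hapln1 on chromosome 13, Bcan beside Hapln2 on chromosome 3, Ncan beside Hapln4 on chromosome 8 and Acan beside Hapln3 on chromosome 7. Hapln2, Hapln3 and Hapln4 were therefore read beside the 10 genes. The 250 bases before the RefSeq start are shown for Vcan and Hapln1, neighbours that are both among the 10 genes. They are also shown for Tnc, because Vcan and Tnc were the only 2 of the 10 whose groups did not overlap. Capitals mark the letters of a GC box, GGGCGG, and those of the TATA box, TATAAA, on either strand. The Vcan stretch is chr13:89742513-89742762 on the minus strand, the Hapln1 stretch chr13:89540386-89540635 on the plus strand and the Tnc stretch chr4:64047016-64047265 on the minus strand, all in GRCm38.p6.
Vcan: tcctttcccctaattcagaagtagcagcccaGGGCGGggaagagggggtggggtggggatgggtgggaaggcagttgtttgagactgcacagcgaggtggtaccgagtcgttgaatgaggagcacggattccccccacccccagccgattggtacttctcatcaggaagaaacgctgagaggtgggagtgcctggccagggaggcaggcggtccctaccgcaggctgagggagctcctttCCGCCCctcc
Hapln1: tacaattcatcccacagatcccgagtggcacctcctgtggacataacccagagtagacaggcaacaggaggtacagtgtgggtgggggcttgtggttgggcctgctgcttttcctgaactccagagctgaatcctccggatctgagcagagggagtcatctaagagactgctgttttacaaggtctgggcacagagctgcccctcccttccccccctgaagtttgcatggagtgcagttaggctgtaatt
Tnc: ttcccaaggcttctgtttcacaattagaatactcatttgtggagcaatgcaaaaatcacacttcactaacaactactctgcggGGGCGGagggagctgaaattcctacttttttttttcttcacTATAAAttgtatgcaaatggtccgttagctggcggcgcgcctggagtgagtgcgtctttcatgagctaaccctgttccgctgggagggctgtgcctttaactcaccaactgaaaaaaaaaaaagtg
The Vcan stretch held 2 matches to the GC box and 0 to the TATA box, the Hapln1 stretch held neither, and the Tnc stretch held 1 of each. The Tnc sequence is that of the first of 2 RefSeq starts. Among the 9 of the 10 genes with a promoter in the table, 6 held GGGCGG (Acan, Bcan, Ncan, Ptprz1, Tnc and Vcan), as did 32.7% of 32851 promoters of the same length. TATAAA was found for Ncan and Tnc, and in 12.4% of all promoters. A gene counted when any of its RefSeq starts matched, whereas both shares are per promoter, so the counts and shares are not in the same unit. These matches describe letters in a window and are not evidence of binding.

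2 transgenic arrays stood apart from the rest. Array weights estimated by limma were 0.284 for transgenic replicate 1 and 0.258 for transgenic replicate 2, against 7.67 for transgenic replicate 3 and 1.07 to 1.56 for wild type arrays. Transgenic replicate 2 had a median log2 intensity of 5.34, and the other arrays 5.52 to 5.59. Sex differed between the groups as well: Xist stood at 9.14 to 9.49 on the wild type arrays and on transgenic replicate 2, and at 4.67 and 4.42 on transgenic replicates 1 and 3, where 3 Y-linked genes had means of 5.99 and 6.32. The only comparison within 1 sex is therefore transgenic replicate 2 against the 3 wild type arrays, all female, a value that rests on 1 transgenic lesion. Differences without transgenic replicate 1 are given beside each of the 10 genes, and those within the female arrays for several of them.

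None of the 10 genes passed the adjusted threshold, and neither did any probe set of the array (0.00% called, smallest adjusted p 0.213 in limma, and also 0 without moderation of the variances). At an unadjusted p under 0.05, 1 of the 10 was lower (Vcan) and 0 were higher, where 4.05% of all probe sets were lower and 4.82% higher. The transgenic arrays all lay below the wild type arrays for 2 of the 10 (Vcan and Tnc) and all above for 0, against 7.60% and 8.54% of all probe sets. Transgenic means were lower for 8 of the 10 genes, with a median difference of -0.15. Over all 22180 genes 51.3% were lower and the median difference was -0.01.

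This count depended on single arrays. Without transgenic replicate 1, 5 of the 10 were lower; without transgenic replicate 2, 9 were lower. Within the female arrays 4 were lower, and the median difference was 0.06. Transgenic replicate 1 was the lowest of the 6 arrays for 7 of the 10 (Ncan, Bcan, Vcan, Tnr, Hapln1, Ptprz1 and Cspg5), as it was for 38.0% of the 13045 genes with a mean above that of the median probe set. For 4 of the 10 (Ncan, Bcan, Acan and Hapln1) transgenic replicate 2 was the highest, as for 40.9% of those genes. Over all 22180 genes, dim ones included, the shares were 26.7% and 29.6%; of the 10, Acan and Cd44 had means below the median probe set.

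**Figure D1:**
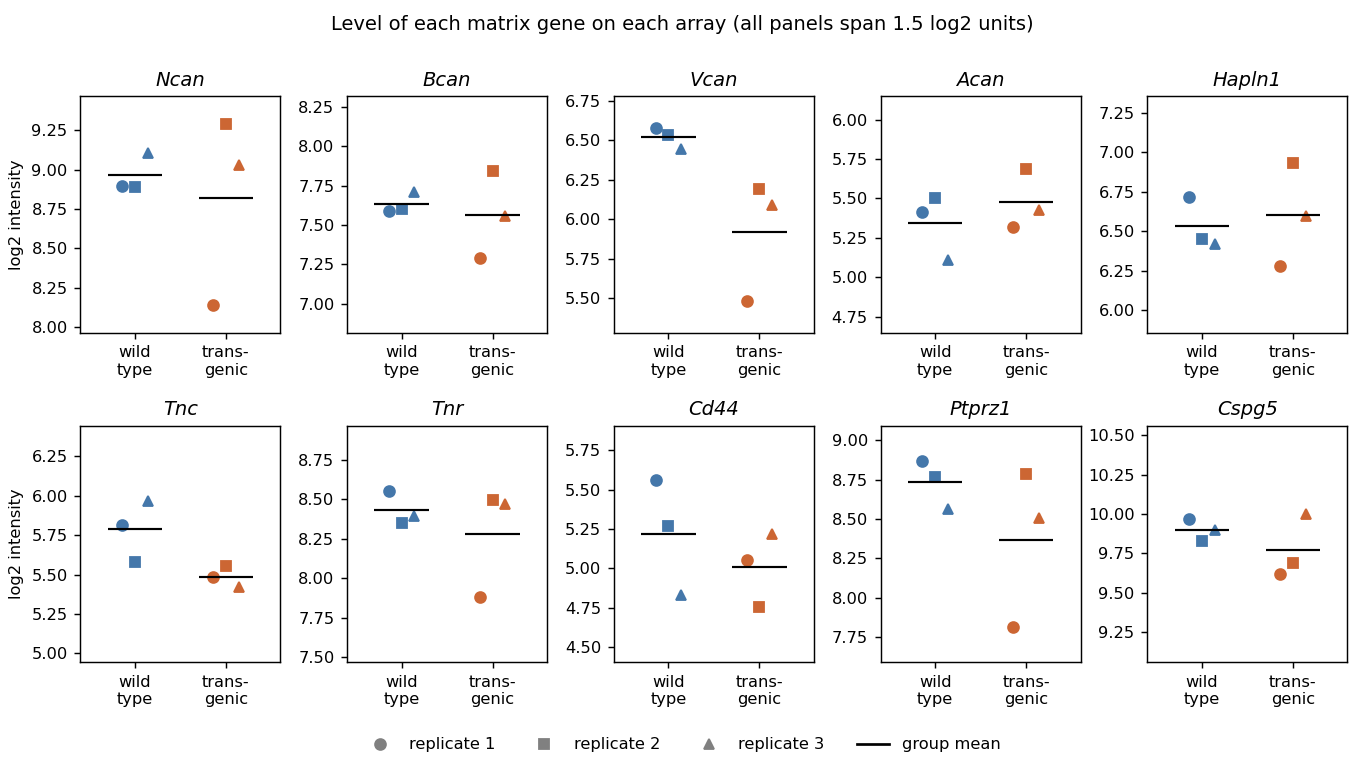
Log2 intensity (vertical axis) of each of the 10 genes on each array, by group (horizontal axis); symbols give the replicate number and the horizontal line the group mean, and every panel spans 1.5 log2 units. In Vcan and Tnc the groups do not overlap, and in Ncan, Tnr and Ptprz1 transgenic replicate 1 lies apart below the other 5 arrays.

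Versican (Vcan) is the lectican of immature matrix and, in the adult brain, a product of the oligodendrocyte lineage. On wild type replicates 1, 2 and 3 its level was 6.58, 6.53 and 6.45; on transgenic replicates 1, 2 and 3 it was 5.48, 6.19 and 6.09. Every transgenic array was below every wild type array, and transgenic replicate 1 was the lowest. The means were 6.52 ± 0.07 and 5.92 ± 0.38 (SD, n = 3), a 1.52-fold lower level in transgenic lesions. The difference was -0.60 (SE 0.21, interval -1.09 to -0.11), at an unadjusted p of 0.0226 and an adjusted p of 0.497 in limma. Without transgenic replicate 1 the difference was -0.38, and within the female arrays -0.33. The unadjusted p was above 0.05 without wild type replicate 1 (0.0653) or 2 (0.0598), after median centring of the arrays (0.0609) without moderation of the variances (0.0558) and with sex as a covariate (0.245).

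Hapln1, the link protein encoded next to Vcan, did not share this pattern. It stood at 6.72, 6.45 and 6.42 in wild type and 6.28, 6.93 and 6.59 in transgenic lesions, in the order of replicates 1, 2 and 3. The transgenic arrays included both the lowest and the highest value of the 6. The difference was 0.07 (interval -0.40 to 0.54), it became -0.09 without transgenic replicate 2 and 0.23 without transgenic replicate 1, and the fit gave an adjusted p of 0.946 in limma. Within the female arrays it was 0.40. The difference between the 2 genes' responses was not itself tested.

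Neurocan (Ncan), a soluble lectican of neurons and astrocytes, varied most between transgenic lesions. Its probe set with the higher mean read 8.90, 8.89 and 9.10 in wild type replicates 1, 2 and 3. In transgenic replicates 1, 2 and 3 it read 8.14, 9.29 and 9.03. Transgenic replicate 2 was above all wild type arrays and transgenic replicate 1 below them by more than the whole wild type range of 0.21. The wild type SD was 0.12 and the transgenic SD 0.60, and the difference was -0.14 (SE 0.29, interval -0.83 to 0.54, adjusted p 0.92 in limma). Leaving out transgenic replicate 1 turned the difference to 0.19, and leaving out transgenic replicate 2 made it -0.38.

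The second Ncan probe set gave a difference of the other sign. Its levels were 8.70, 8.49 and 8.62 in wild type and 8.56, 9.05 and 8.80 in transgenic lesions, a difference of 0.20 (SE 0.17, adjusted p 0.783 in limma). On it transgenic replicate 1 lay within the wild type range. The direction of Ncan is therefore not settled by these arrays.

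Brevican (Bcan), a small lectican of astrocytes and precursors that surrounds synapses, also had its lowest level on transgenic replicate 1 and its highest on transgenic replicate 2, at a smaller scale than Ncan. Replicates 1, 2 and 3 gave 7.59, 7.60 and 7.71 for wild type and 7.29, 7.84 and 7.56 for transgenic lesions. Transgenic replicates 1 and 2 lay on opposite sides of the wild type arrays. The difference of -0.07 (interval -0.48 to 0.34, adjusted p 0.94 in limma) turned to 0.07 without transgenic replicate 1 and was -0.21 without transgenic replicate 2.

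Aggrecan (Acan) is the lectican of perineuronal nets, made by the enwrapped neurons. Wild type levels were 5.41, 5.50 and 5.11 and transgenic levels 5.32, 5.69 and 5.43, so that the groups overlapped and the highest array was transgenic replicate 2. Transgenic lesions were higher on average by 0.14 (interval -0.27 to 0.54, adjusted p 0.865 in limma). The difference was 0.22 without transgenic replicate 1 but only 0.03 without transgenic replicate 2 and 0.02 without wild type replicate 3. Within the female arrays it was 0.35. The mean level lay at the 48.0th percentile of all probe sets, and with no detection calls it is unknown whether Acan, or Cd44 and Tnc below, were above background. The parvalbumin neuron list, the markers of the cells that carry most nets, had higher means in transgenic lesions for 5 of 6 genes, with list means of 6.46 to 6.84 on wild type and 6.87 to 7.19 on transgenic arrays. Within this list only Pvalb had groups that did not overlap, with a difference of 1.41 (adjusted p 0.261 in limma). The other differences ran from -0.02 (Kcns3) and 0.02 (Gad1) to 0.60 (Kcnc2), so the gap between the list means need not hold without Pvalb. The part of these neurons in the Acan values was not tested.

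**Figure D2:**
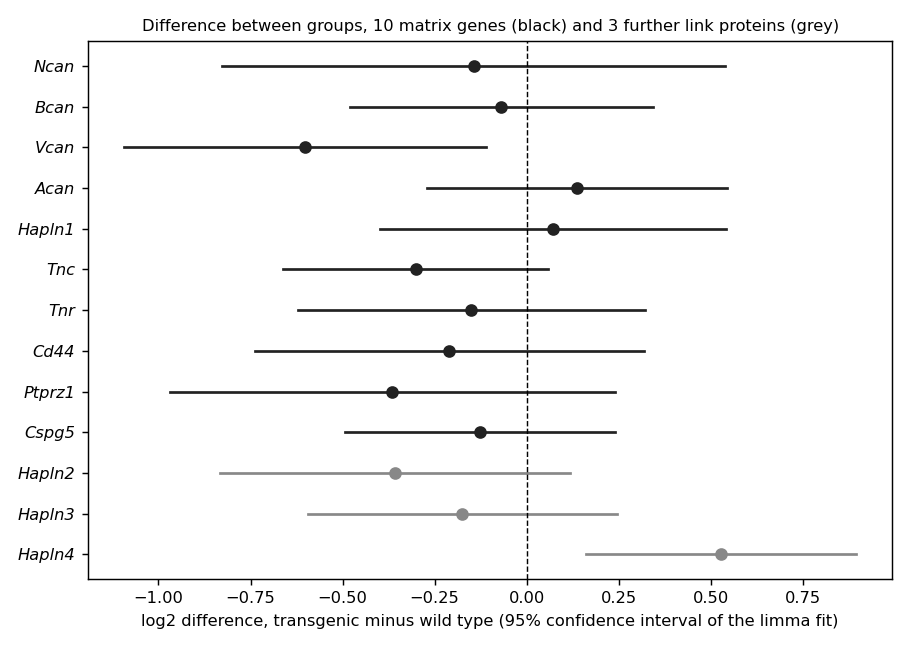
Log2 difference between transgenic and wild type lesions (horizontal axis) with its 95% confidence interval from limma for the 10 genes (black) and the link proteins Hapln2, Hapln3 and Hapln4 (grey), n = 3 arrays per group. The intervals of Vcan (-1.09 to -0.11) and Hapln4 (0.16 to 0.89) leave out 0 before adjustment; no gene passed after adjustment.

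Tenascin-C (Tnc) is a matrix glycoprotein that astrocytes raise after injury. Wild type replicates 1, 2 and 3 read 5.81, 5.58 and 5.97, and the transgenic replicates, in the same order, read 5.48, 5.56 and 5.42. The groups did not overlap, but the lowest wild type array, replicate 2, and the highest transgenic array, also replicate 2, were only 0.03 apart. The median log2 intensities of these arrays, 5.535 and 5.336, lay further apart than that, so the gap depends on how the arrays are scaled. The means were 5.79 ± 0.19 and 5.49 ± 0.07 (SD, n = 3), a 1.23-fold lower level in transgenic lesions, with a difference of -0.30 (SE 0.15, interval -0.66 to 0.06). The unadjusted p was 0.0885 and the adjusted p 0.626 in limma. After median centring of the arrays the difference was -0.25 (unadjusted p 0.213 in limma). After quantile normalization it was also -0.25 (unadjusted p 0.17 in limma). Unlike Vcan and Ncan, Tnc was not low on transgenic replicate 1 in particular: its difference was -0.30 without that array and -0.23 within the female arrays. Its sign was the same when any array was left out, from -0.40 to -0.21. Tnc lay at the 53.0th percentile of probe set means.

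Tenascin-R (Tnr), the tenascin that cross-links lecticans and is made by oligodendrocyte lineage cells and some interneurons, gave 8.56, 8.35 and 8.40 in wild type and 7.88, 8.50 and 8.47 in transgenic lesions. Transgenic replicates 2 and 3 lay within the wild type range and transgenic replicate 1 below it. The difference was -0.15 (SE 0.20, interval -0.62 to 0.32, adjusted p 0.871 in limma), 0.05 without transgenic replicate 1 and -0.26 without transgenic replicate 2.

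Cd44, the main cell surface receptor for hyaluronan, found on reactive astrocytes and immune cells, gave 5.56, 5.27 and 4.83 on the wild type and 5.06, 4.75 and 5.22 on the transgenic arrays. Its spread was larger in wild type (SD 0.37) than in transgenic lesions (SD 0.24), and the groups overlapped. The difference was -0.21 (interval -0.74 to 0.32, adjusted p 0.834 in limma). Its size rested on single arrays: it was -0.04 without wild type replicate 1, -0.08 without transgenic replicate 2, -0.32 without transgenic replicate 3, -0.41 without wild type replicate 3 and -0.23 without transgenic replicate 1. Within the female arrays it was -0.47, a larger fall than that of Vcan (-0.33). Its mean lay at the 41.6th percentile of probe sets. The microglia and macrophage list also varied within both groups, with list means of 8.96, 8.06 and 7.34 in wild type and 8.55, 7.27 and 7.19 in transgenic replicates 1, 2 and 3. Within wild type the list and Cd44 had the same order of arrays. Within transgenic lesions they did not, since Cd44 was highest on replicate 3, where the list was lowest. The part of these cells in the Cd44 values was not tested.

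Ptprz1 encodes a receptor phosphatase of astrocytes and precursors whose secreted form is the proteoglycan phosphacan. Levels were 8.87, 8.77 and 8.56 on wild type replicates 1, 2 and 3, and 7.81, 8.78 and 8.51 on transgenic replicates 1, 2 and 3. Only transgenic replicate 1 was clearly low; transgenic replicate 2 exceeded 2 of the wild type arrays. The mean difference of -0.36 (SE 0.26, interval -0.97 to 0.24, adjusted p 0.733 in limma) was the next largest in size after Vcan. It shrank to -0.09 without transgenic replicate 1, grew to -0.57 without transgenic replicate 2 and was 0.05 within the female arrays.

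Cspg5, or neuroglycan C, is a membrane proteoglycan of neurons and precursors. It stood at 9.97, 9.83 and 9.90 in wild type and 9.62, 9.69 and 10.004 in transgenic lesions, where transgenic replicate 3 was the highest of all 6 arrays. The difference was -0.13 (SE 0.16, interval -0.49 to 0.24, adjusted p 0.857 in limma), -0.05 without transgenic replicate 1 and -0.24 without transgenic replicate 3.

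Markers of neurons, astrocytes and oligodendrocytes had list means well above the array medians on every array, as brain tissue would give, and those of the cells that make this matrix differed between the arrays. In a bulk lesion sample fewer cells of a type and less RNA per cell cannot be told apart. Of 10 astrocyte markers 8 had lower means in transgenic lesions, with list means of 8.84, 8.72 and 8.75 in wild type and 8.08, 8.71 and 8.65 in transgenic replicates 1, 2 and 3. Of these markers, 9 were lowest on transgenic replicate 1, the array on which 7 of the 10 matrix genes were lowest. The exception was Gfap, at 8.91, 8.82 and 9.24 on transgenic replicates 1, 2 and 3. Its wild type levels were 9.83, 9.18 and 9.09, so its groups overlapped. Low values on transgenic replicate 1 were not particular to astrocyte markers. It was also the lowest for 5 of 6 endothelium, 5 of 9 mature oligodendrocyte and 5 of 10 precursor markers. It was so for only 2 of 8 general neuron markers and 1 of 10 microglia and macrophage markers. All 10 precursor markers had lower means, with list means of 7.06 to 7.25 on wild type and 6.65 to 6.87 on transgenic arrays, groups that did not overlap, as in Vcan. Gene by gene, the groups did not overlap only for Olig1, Olig2 and Sox10. The precursor differences ran from -0.75 (Sox10) to -0.003 (Lhfpl3), with Pdgfra at -0.40 and Cspg4 at -0.12. All 9 measured markers of mature oligodendrocytes were lower, at 9.62 to 10.07 against 8.72 to 9.18. No marker in these lists passed the adjusted threshold, and the part of these cells in the matrix values was not tested.

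Region markers also differed. Striatal neuron markers had list means of 8.16 and 8.79 on wild type replicates 2 and 3 and of 5.99 to 6.53 on the other 4 arrays. Vcan stood at 6.58 on wild type replicate 1, at 6.53 and 6.45 on wild type replicates 2 and 3, and at 5.48 to 6.19 on the transgenic arrays. Neuroblast markers of the subventricular zone were lower in all 7 measured genes. Their list means were 6.27 to 6.91 on wild type and 5.92 to 6.17 on transgenic arrays, groups that did not overlap, as in Vcan. Cortical neuron markers were highest on transgenic replicate 2, at 8.60, and next highest on transgenic replicate 3, at 8.31, against 7.88 to 7.94 on the other arrays. No marker of these 3 region lists passed the adjusted threshold, and the part of the dissected region in the matrix values was not tested.

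**Figure D3:**
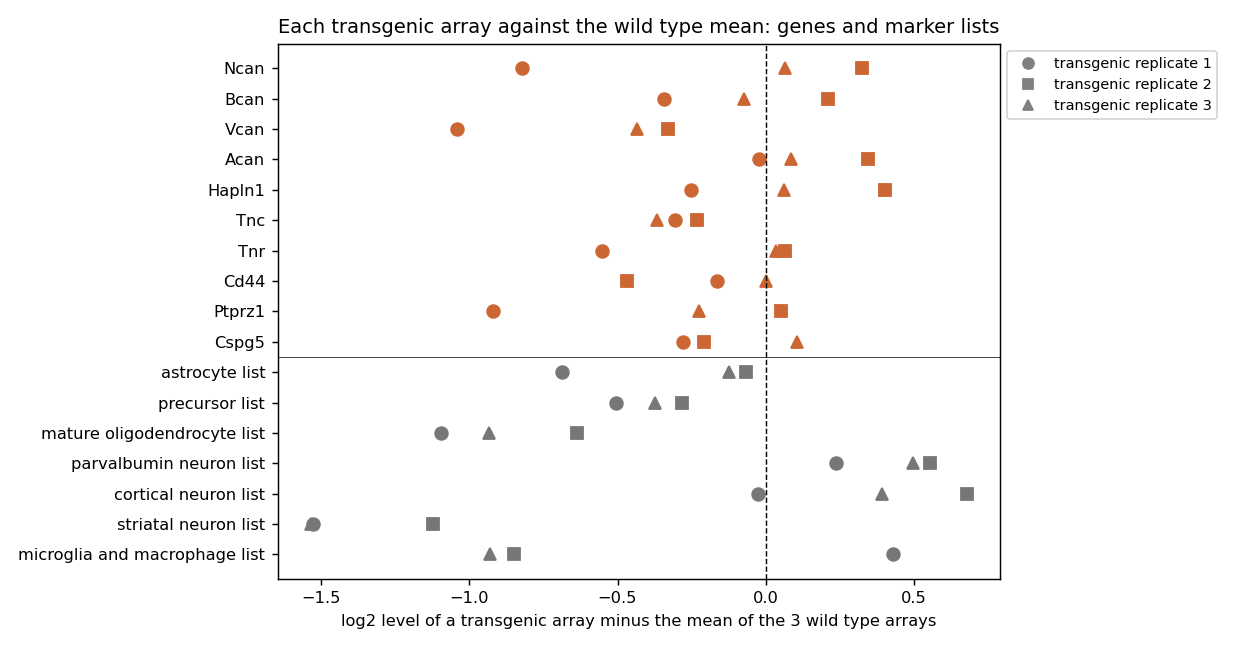
Log2 level of each transgenic array minus the mean of the 3 wild type arrays (horizontal axis) for the 10 genes (orange) and for the means of 7 marker lists (grey); symbols give the replicate. Transgenic replicate 1 lies lowest in Ncan (-0.82), Vcan (-1.04), Tnr (-0.55) and Ptprz1 (-0.92), whereas the 3 transgenic arrays lie close together in Tnc. Among the lists it lies lowest for astrocytes (-0.69), precursors (-0.50), mature oligodendrocytes (-1.09), parvalbumin neurons (0.24) and cortical neurons (-0.03). It lies highest for microglia and macrophages (0.43).

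The remaining link proteins had differences of both signs. Hapln4, a link protein of perineuronal nets and the neighbour of Ncan, read 5.80, 6.19 and 6.09 in wild type and 6.64, 6.49 and 6.53 in transgenic lesions. All transgenic arrays were above all wild type arrays. The level was 1.44-fold higher, with a difference of 0.53 (SE 0.16, interval 0.16 to 0.89), an unadjusted p of 0.0112 and an adjusted p of 0.47 in limma. It was 0.48 without transgenic replicate 1 and 0.47 within the female arrays.

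Hapln2, the link protein of the nodes of Ranvier made by oligodendrocytes, stood at 7.59, 7.13 and 7.37 and 6.75, 7.32 and 6.94, overlapping groups with a difference of -0.36 (interval -0.83 to 0.12, adjusted p 0.658 in limma). It was -0.23 without transgenic replicate 1 and -0.04 within the female arrays. Hapln3, a link protein best known outside the brain, differed by -0.17 (interval -0.59 to 0.24, adjusted p 0.826 in limma), and by -0.03 without transgenic replicate 2. Its mean lay at percentile 30.8 of probe sets, and whether it was above background is unknown.

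Among genes of hyaluronan synthesis, binding and breakdown, 20 of 22 listed genes were measured and 0 passed the adjusted threshold. 15 had lower and 5 higher means, with a median difference of -0.12. At an unadjusted p under 0.05, 1 was higher (Hapln4) and 2 lower, where the background of all probe sets was 4.82% and 4.05%. Tnfaip6, which transfers heavy chains onto hyaluronan in inflamed tissue, gave 7.35, 6.95 and 7.18 on wild type and 6.72, 6.90 and 6.09 on transgenic arrays, a difference of -0.59 (SE 0.24, adjusted p 0.541 in limma). Transgenic replicate 3 was the lowest, and the difference was -0.35 without it and -0.26 within the female arrays. Cemip2, a membrane protein of hyaluronan metabolism, stood at 5.95, 6.41 and 6.17 and 5.73, 5.73 and 5.86, with a difference of -0.40 (SE 0.16, adjusted p 0.551 in limma). Leaving out 1 array raised the unadjusted p to as much as 0.121 for Tnfaip6 and 0.161 for Cemip2. The hyaluronan synthases Has1, Has2 and Has3 were among the 17 genes of this list above an unadjusted p of 0.05.

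Genes that build chondroitin sulfate chains showed no common direction. Of 20 measured genes 9 were higher and 11 lower, with a median difference of -0.03 and 0 at an unadjusted p under 0.05. The 4 with the smallest p-values were all higher. They were the chain synthase Chsy3 (0.34, SE 0.15), the sulfotransferase Chst3 (0.33, SE 0.17), the polymerising factor Chpf (0.27, SE 0.17) and the linker enzyme B3galt6 (0.22, SE 0.17), with adjusted p-values from 0.586 to 0.764 in limma. A second probe set of Chsy3 differed by -0.11, so its direction is uncertain. Chpf differed by 0.16 without transgenic replicate 2 and B3galt6 by 0.08 without wild type replicate 1. The means of Chst3 and B3galt6 lay at percentiles 40.2 and 49.6 of probe sets, and whether they were above background is unknown.

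Among receptors and binding partners of these proteoglycans and tenascins, 22 of 22 were measured and 0 passed the adjusted threshold; 6 were higher and 16 lower, with a median difference of -0.15. At an unadjusted p under 0.05, 1 was higher (Rtn4r) and 1 lower (Nfasc), beside 4.82% and 4.05% of all probe sets. For 1 higher and 4 lower genes the 2 groups were fully apart, beside 8.54% and 7.60% of all probe sets. Rtn4r, the Nogo receptor of neurons, which also binds chondroitin sulfate proteoglycans, stood at 7.69, 7.68 and 7.80 in wild type and 8.44, 8.68 and 8.40 in transgenic lesions. The groups were separated by more than either group's range. The level was 1.72-fold higher in transgenic lesions, with a difference of 0.78 (SE 0.14, interval 0.44 to 1.12), an unadjusted p of 0.000845 and an adjusted p of 0.297 in limma. It was 0.81 without transgenic replicate 1 and 0.95 within the female arrays. The neuron list was higher in all 8 markers, with list means of 9.28 to 9.54 on wild type and 9.51 to 9.99 on transgenic arrays, and its part in Rtn4r was not tested.

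On the lower side of that list were the adhesion molecules Nfasc, which anchors nodes and paranodes, and Ncam1, a partner of neurocan. Nfasc read 8.93, 8.83 and 8.84 against 8.16, 8.62 and 8.58, a difference of -0.41 (SE 0.17, adjusted p 0.55 in limma), which was -0.27 without transgenic replicate 1 and -0.25 within the female arrays. Ncam1 differed by -0.52 (SE 0.24) and by -0.24 without transgenic replicate 1. Itgb1, an integrin subunit that binds tenascins, differed by -0.34 (SE 0.19) and by -0.15 without wild type replicate 1. In all 3 the groups did not overlap, though in Itgb1 they were only 0.005 apart.

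Proteases that cleave lecticans were lower in 8 of 10 measured genes, with a median difference of -0.12 and 0 past the adjusted threshold. The groups did not overlap for 4 of the 10, all lower, beside 7.60% of all probe sets. Adamts4, an aggrecanase that in the mouse brain is made by oligodendrocytes, stood at 7.10, 6.83 and 6.85 in wild type and 5.93, 6.34 and 6.61 in transgenic lesions. The groups did not overlap, the level was 1.55-fold lower in transgenic lesions, and the difference was -0.63 (SE 0.20, adjusted p 0.488 in limma). The metalloprotease Adamts1 (-0.35, SE 0.18) and the membrane protease Mmp14 (-0.26, SE 0.15) also had groups that did not overlap. They were only 0.06 and 0.02 apart. The median log2 intensity was 5.34 on transgenic replicate 2 and 5.52 to 5.55 on wild type arrays, further apart than either gap. Both gaps therefore depend on how the arrays are scaled. Mmp9 (-0.20, SE 0.15) did not separate the groups. Its mean lay at percentile 45.4 of probe sets, and whether it was above background is unknown. Without wild type replicate 1 the difference of Adamts1 was -0.18.

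**Figure D4:**
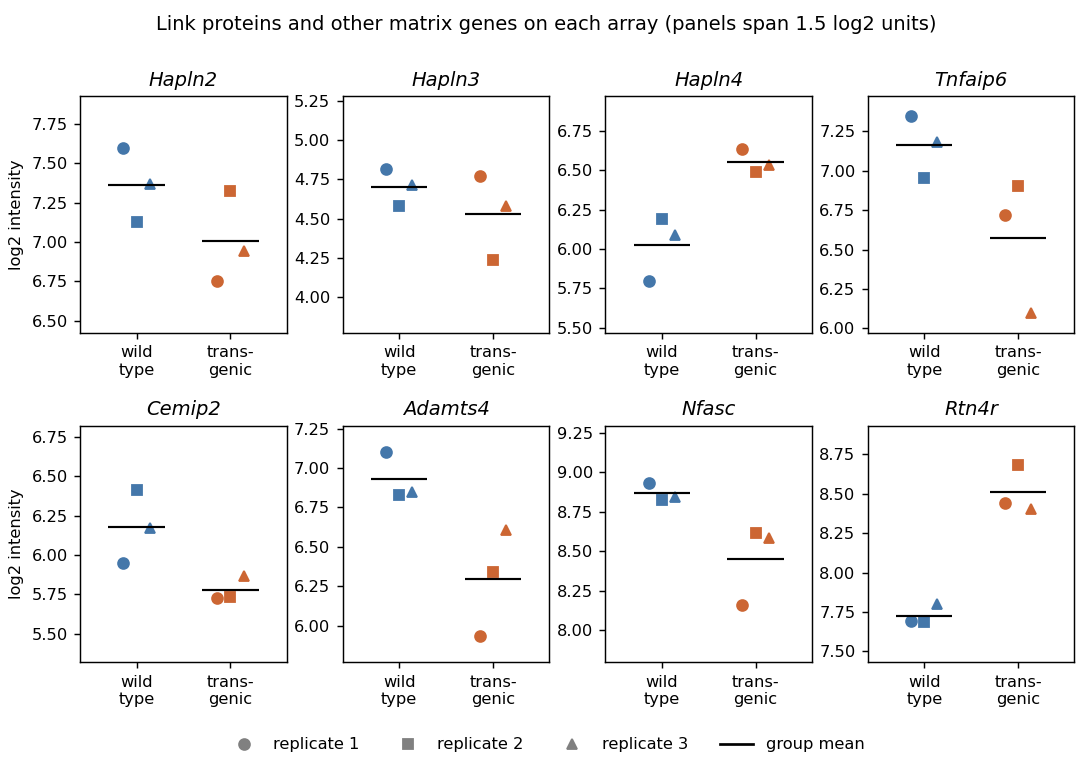
Log2 intensity (vertical axis) on each array of the link proteins Hapln2, Hapln3 and Hapln4 and of the 5 further matrix genes with an unadjusted p under 0.05, by group; symbols give the replicate, lines the group mean, and each panel spans 1.5 log2 units. Rtn4r and Hapln4 are higher on every transgenic array, and Tnfaip6, Cemip2, Adamts4 and Nfasc are lower on every transgenic array.

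The profiles of the 10 genes over the 6 arrays were compared after centring each on its mean, by the root mean square distance in log2 units. Ptprz1 was the nearest of the other genes to Vcan, at 0.15, and Tnr and Bcan were each other's nearest, at 0.14. Over 13045 genes with a mean above that of the median probe set, the nearest to Vcan were Gprc5b (0.05) and Ccnyl1 (0.06). The nearest to Ncan were Dcaf5 and Dyrk1b, and to Ptprz1 Fgfr1 and Rab7. With 6 arrays and so many candidates close profiles are easily found: after quantile normalization only 3 of the 20 nearest genes were the same.

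**Figure D5:**
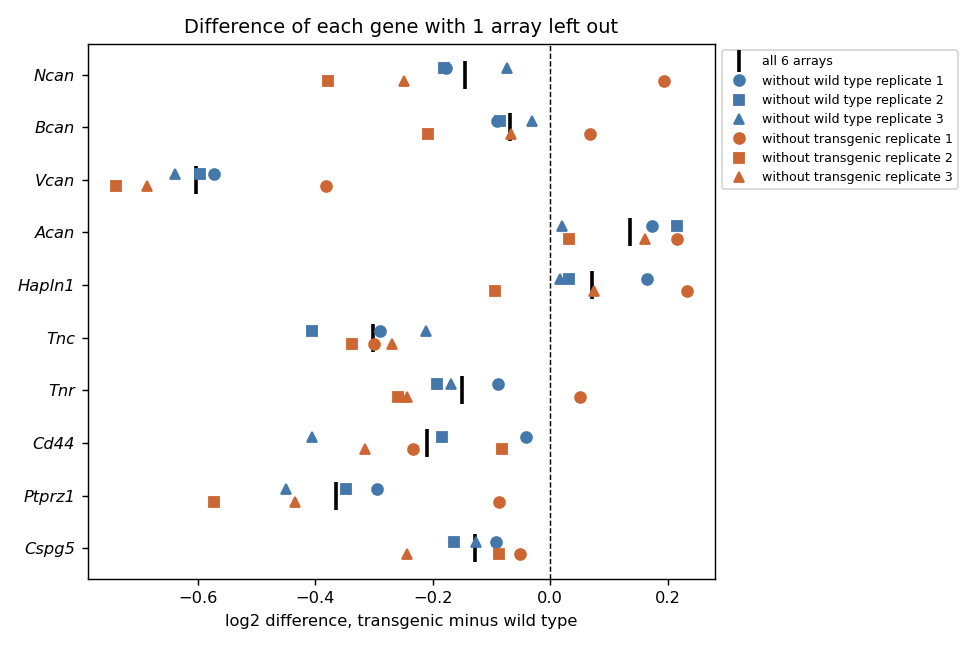
Log2 difference between transgenic and wild type lesions (horizontal axis) for each of the 10 genes with all 6 arrays (black bar) and with each array left out in turn (symbols; blue for wild type, orange for transgenic). Vcan stays between -0.74 and -0.38 and Tnc between -0.40 and -0.21, whereas Ncan, Bcan and Tnr pass 0 without transgenic replicate 1 and Hapln1 passes 0 without transgenic replicate 2.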

How the data were processed

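Total RNA of 6 lesions was measured on 6 arrays, and groups and replicate numbers came from the sample titles. The deposited values are intensities; per the submitters' processing notes, the authors used Affymetrix Expression Console and RMA. They lay on a linear scale, from 3.73 to 15793, and were turned to log2 without a pseudocount. The sources used here give no tool versions, no detection calls and no dates of scanning. Of 41345 probe sets, 23521 had 1 gene symbol.

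The groups were compared with limma 3.58.1 in R 4.3.3 (lmFit, eBayes, two-sided, no covariate). In a simulation of this comparison over 41345 probe sets, log2 changes of 1 were called in 30 of 100 and log2 changes of 2 in 92 of 100, beside 6 false calls. It drew independent normal noise with the same SD on every array. The measured arrays differed in spread, with a median SD among the brighter genes of 0.24 in transgenic and 0.12 in wild type lesions. The simulated rates need not hold for them. The 3 arrays per group limit the precision: the median half-width of a 95% interval was 0.42 among the brighter genes.

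Sex was read from Xist and 3 Y-linked genes. The genes, lists and tests were chosen with earlier results of these data known. Beside the 10 genes, the text names the 4 genes with the smallest p of each of 4 matrix lists, the link proteins, and the 2 genes with the nearest profile to each of the 10, of which those of 3 genes are given. Alternatives were quantile normalization, median centring, log2 of the intensity plus 16, leaving out dim probe sets or each array, a replicate block, array weights, sex as a covariate, no moderation, and the mean of all probe sets of a gene. Unused per-sample columns numbered 0.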

Additional observations from a re-analysis of the deposited data

How the results depend on the processing

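For the 10 genes, 136 of 148 values under 15 alternatives kept their sign and none passed the adjusted threshold. Some of the 136 could not change sign. No moderation, the replicate block and leaving out dim probe sets do not alter a difference. The mean of all probe sets could alter only that of Ncan. The other 12 turned sign, and the cause was not tested. Without transgenic replicate 1 these were Bcan (0.068), Ncan (0.194) and Tnr (0.051), and without transgenic replicate 2 Hapln1 (-0.094). With sex in the model, which leaves only transgenic replicate 2 to set against wild type, they were Bcan (0.210), Ncan (0.324), Ptprz1 (0.052) and Tnr (0.066). With array weights they were Cspg5 (0.092), Ncan (0.052) and Tnr (0.028), and with the mean of its probe sets Ncan (0.028). Leaving out 1 array at a time gave -0.209 to 0.068 for Bcan, -0.379 to 0.194 for Ncan, -0.259 to 0.051 for Tnr and -0.094 to 0.232 for Hapln1. The median difference of the 10 ranged from -0.247 to -0.00019 when 1 array was left out and was 0.059 with sex as a covariate. With array weights it was 0.001, and 5 of the 10 were lower.

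Probe sets past the adjusted threshold numbered 0 with all arrays, 2611 with array weights, 1481 with sex as a covariate and 0 to 335 when 1 array was left out, the highest without transgenic replicate 2. At an unadjusted p under 0.05 they numbered 3668, against 10793, 8604 and, without dim probe sets, 2243; leaving out 1 array gave 2031 (wild type replicate 1) to 5168 (transgenic replicate 1). Of the other named genes Rtn4r (adjusted p 0.00732), Tnfaip6 (0.0152) and Hapln4 (0.0443) passed with array weights, which rested on transgenic replicate 3, and Rtn4r (0.0389) with sex as a covariate.

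Deviations of same-numbered arrays were hardly correlated (0.012, -0.098 and -0.068). The sample titles do not say whether same-numbered arrays were processed together. These correlations cannot decide that, because each group has few arrays and some transgenic arrays stood apart from the rest. A shared batch was not tested. With the replicate number as a block, 2999 probe sets had an unadjusted p under 0.05 and 0 passed after adjustment.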
